A study of Mus musculus with 9 samples.

Results

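The replication-dependent histone genes were followed here in single-cell RNA profiles of 168FARN mouse mammary tumours. They were chosen by name: every symbol of the feature table that begins with Hist1h, Hist2h, Hist3h or Hist4h and that reached at least 10 UMIs (unique molecular identifiers, each standing for 1 captured mRNA molecule) over all kept cells. The pattern matched 67 of 32286 genes and the UMI minimum left 62: 6 of the linker histone H1 and 16, 16, 12 and 12 of the core histones H2A, H2B, H3 and H4. Just inside the minimum were Hist1h1t with 13 UMIs, Hist1h2ao with 14 and Hist2h3c2 with 21. Just outside were Hist2h2aa2 with 7, Hist1h2aa with 4 and Hist1h2ba with 1, and Hist1h4m and Hist1h2bq had 0. The members were measured in tumour cells in which the H2BMc transcript, the H2B–mCherry reporter, had at least 1 UMI, which were 16707 of 58645 kept cells.

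168FARN is a mammary tumour cell line that does not metastasise on its own. Its WT form and derivatives edited with Cas9 and guides against exon 1 of Kmt2c or Kmt2d, which encode methyltransferases of lysine 4 on histone H3, were injected into the mammary fat pads of female BALB/c mice, and whole tumour suspensions were profiled from the 5′ end of each mRNA. The knockout (KO) lines were sorted pools, not clones, and cells of all 3 groups carried the lentiviral reporter. The 9 libraries were 3 WT, 3 Kmt2c KO and 3 Kmt2d KO tumours, and their numbers 1 to 3 only name libraries.

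Replication-dependent histone genes are transcribed when DNA is copied, so that new chromatin can be packed as it forms. Most lie in clusters, lack introns and give mRNAs that end in a short conserved stem-loop instead of a poly(A) tail. The stem-loop is bound by SLBP, which directs cleavage of the 3′ end, and the mRNAs are degraded when replication ends. Some members are also read through to a downstream poly(A) site, and priming with oligo(dT), which the 5′ kit uses, favours tailed molecules. Levels below are UMIs per 1000000 UMIs of the same cells (CPM) summed over the cells of a library. Each molecule is counted once from its 5′ end, so levels are not scaled by gene length. CPM gives a share of a library's RNA and not molecules per cell.

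By RefSeq coordinates on GRCm38.p6, 49 of 61 matched members lie on chromosome 13 between 21715711 and 23764412, 9 on chromosome 3 between 96219885 and 96270192, 2 on chromosome 11 between 58948911 and 58955192 and 1 on chromosome 6 between 136803993 and 136804431. Hist1h2ap had no single match. The stem-loops of 7 members on which the results turn are given from GENCODE vM1 transcript models, written as DNA, with the histone stem-loop in capitals and 5 bases on either side. The pattern searched for was GG, 3 bases, TTTT, 1 base, A, 3 bases and CC, with at least 5 of the 6 stem pairs matched:
Hist1h1e: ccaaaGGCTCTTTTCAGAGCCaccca
Hist1h2ae: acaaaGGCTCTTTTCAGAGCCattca
Hist1h2bm: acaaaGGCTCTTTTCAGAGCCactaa
Hist1h2bf: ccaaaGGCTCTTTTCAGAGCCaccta
Hist3h2ba: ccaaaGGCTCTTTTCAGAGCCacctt
Hist1h3e: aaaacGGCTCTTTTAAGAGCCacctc
Hist1h4d: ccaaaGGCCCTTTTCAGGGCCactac
The capitals are the same in Hist1h1e, Hist1h2ae, Hist1h2bm, Hist1h2bf and Hist3h2ba, so that genes with unlike levels and unlike cell cycle patterns share them. Of 40 members whose model holds at least 60 bases after the coding sequence, 34 held the pattern. Among H2B genes it was not in the models of Hist2h2be (2192 bases after the coding sequence), Hist2h2bb (1117 bases), Hist1h2bc (322 bases) or Hist1h2br (up to 1803 bases). It was also not in those of the H3 gene Hist1h3g (95 bases) and the H4 gene Hist1h4a (154 bases). In 16 members the model ran at least 100 bases past the stem-loop, as in Hist1h1c with 839 bases and Hist1h3e with 369, but only 166 in Hist3h2ba and 46 in Hist1h2bm.

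The promoter windows of 3 members with unlike behaviour are given from RefSeq on GRCm38.p6, 250 bases before to 50 after the start site in the direction of transcription. They are Hist1h1b at chr13:21780576-21780875 (minus strand), an H1 gene that rose steeply with the cell cycle, Hist1h2ae at chr13:23571171-23571470 (minus strand), the highest H2A member, and Hist1h2bm at chr13:21721794-21722093 (plus strand), an H2B member that differed by less than 0.5 log2 units between phases G1 and G2M. Capitals mark TATAAA on the sense strand, and CCAAT and the octamer ATTTGCAT on either strand (so also ATTGG and ATGCAAAT):
Hist1h1b: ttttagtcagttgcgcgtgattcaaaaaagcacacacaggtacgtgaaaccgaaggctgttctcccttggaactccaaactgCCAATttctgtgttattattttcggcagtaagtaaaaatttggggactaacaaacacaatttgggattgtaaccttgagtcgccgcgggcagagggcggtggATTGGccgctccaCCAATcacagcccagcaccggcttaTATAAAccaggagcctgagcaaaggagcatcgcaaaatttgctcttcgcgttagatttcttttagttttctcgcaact
Hist1h2ae: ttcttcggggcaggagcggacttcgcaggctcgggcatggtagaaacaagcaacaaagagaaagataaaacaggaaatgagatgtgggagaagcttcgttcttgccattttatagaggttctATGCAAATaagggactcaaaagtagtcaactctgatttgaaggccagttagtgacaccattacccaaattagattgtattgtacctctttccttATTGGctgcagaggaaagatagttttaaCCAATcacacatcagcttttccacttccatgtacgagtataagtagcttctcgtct
Hist1h2bm: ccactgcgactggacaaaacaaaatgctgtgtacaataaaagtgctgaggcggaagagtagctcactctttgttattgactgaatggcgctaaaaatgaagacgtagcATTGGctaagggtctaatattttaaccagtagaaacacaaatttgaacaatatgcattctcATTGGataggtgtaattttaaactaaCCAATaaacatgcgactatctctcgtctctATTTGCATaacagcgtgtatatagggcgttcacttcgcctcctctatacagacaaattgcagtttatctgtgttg
TATAAA was in 48.2% of 56 member promoters and in 8.89% of the 27025 promoters of all genes. CCAAT was in 85.7% against 37.8%, in every H1, H2A, H2B and H3 promoter and in 27.3% of those of H4. ATTTGCAT was in 21.4% against 1.74%, in 6 of 15 H2A and 6 of 14 H2B promoters and in 0 of those of H1, H3 and H4. Windows of divergent H2A and H2B pairs, with starts 164 to 249 bases apart, overlap. There 1 CCAAT or ATTTGCAT site can count for both genes, so the H2A and H2B counts are not independent. These matches are a description of letters in the window.

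In H2BMc-positive cells the leukocyte marker Ptprc was at 0 to 1.44 CPM and the endothelial markers Pecam1 and Cdh5 at 0.3 to 2.72 and 3.6 to 14 CPM. Nearly all of the summed endothelial list (Pecam1, Cdh5 and Cd34), at 225 to 307 CPM, was therefore Cd34. Cdh5 also moved with genotype, at 3.6, 6.31 and 4.7 CPM in WT 10.4, 10.5 and 14 in Kmt2c KO and 4.25, 10.8 and 5.63 in Kmt2d KO, and its part in the differences below was not tested. Kmt2c mRNA was at 48.1, 49.1 and 48.1 CPM in the WT libraries and at 43.9, 42.0 and 57.6 in those labelled Kmt2c KO, and Kmt2d mRNA at 21.4, 19.0 and 14.9 in WT and 25.9, 31.9 and 24.3 in Kmt2d KO. Kmt2c overlapped WT in its own knockout and Kmt2d lay above WT in its own, and since small edits need not remove an mRNA, these values do not check the labels. Libraries shared 184 of 16521 barcode sequences among H2BMc-positive cells. WT libraries held 361 to 925 such cells at medians of 13729 to 24081 UMIs and KO libraries 1851 to 3434 cells at 8661 to 14789 UMIs, so cell number and, in part, depth moved with genotype. The share of barcodes over the mitochondrial limit was 50.7%, 26.6% and 68.5% in WT and 13.0% to 29.5% in the KO libraries, above all KO libraries in WT libraries 1 and 3. Nothing in the labels says whether the 3 tumours of a group came from separate cultures, and p-values measure the spread between these libraries.

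Members made up 0.133% of the UMIs of H2BMc-positive cells. H1 genes gave 34.8% of these, H2A genes 29.7%, H2B genes 25.0%, H4 genes 6.16% and H3 genes 4.28%, and the 5 highest members together gave 59.5%. Summed over the 62 members, the level was 1340, 1046 and 1188 CPM in WT, 1461, 1221 and 1302 CPM in Kmt2c KO and 1259, 1608 and 1292 CPM in Kmt2d KO. The ranges of the 3 groups overlapped. Of the linker histones, Hist1h1e was highest at 194, 180 and 174 CPM in WT, 233, 159 and 222 in Kmt2c KO and 215, 326 and 205 in Kmt2d KO. Hist1h1b, another linker histone, had 154, 132 and 129 CPM in WT, 177, 103 and 140 in Kmt2c KO and 137, 257 and 142 in Kmt2d KO. Both were highest in Kmt2d KO library 2. For Hist1h1e every Kmt2d KO library lay above every WT library while Kmt2c KO overlapped both groups, and for Hist1h1b all 3 groups overlapped. Among the core histones Hist1h2ae led H2A with 228, 141 and 174 CPM in WT, 215, 159 and 189 in Kmt2c KO and 167, 249 and 209 in Kmt2d KO.

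The most abundant H3 and H4 genes were much lower. Hist1h3e led H3 with means of 27.2 ± 8.62 CPM for WT, 29.9 ± 5.08 for Kmt2c KO and 39.8 ± 17.6 for Kmt2d KO (SD, n = 3). Hist1h4d led H4 with 39.2 ± 7.74, 40.6 ± 7.48 and 47.8 ± 8.73 CPM (SD, n = 3). The H2A gene Hist1h2ap ran from 66.7 CPM in WT library 2 to 172 CPM in WT library 1, so that its WT libraries alone spanned every other value. All 420 stretches of 100 bases in Hist1h2ap occur in other members too, most of them in Hist1h2ao, which had 7 UMIs in H2BMc-positive cells against 25774 for Hist1h2ap, so that the split of reads between such copies is uncertain. Over the members, 10 of 61 shared no 100-base stretch with another gene, 51 shared at least 1 and 18 shared over 50% of them. At the lower end, 7 members had fewer than 100 UMIs, and the test without phases took in 56 of the 62.

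**Figure D1:**
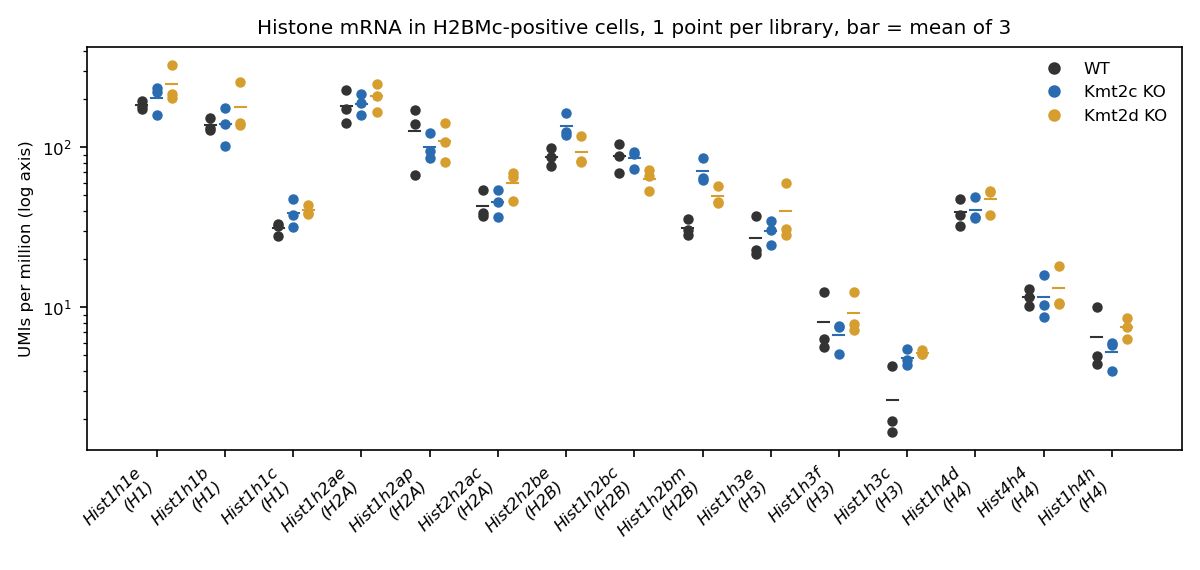
CPM (log axis) of the 3 highest members of each histone class in H2BMc-positive cells, with 1 point per library and a bar at the mean of the 3 libraries of a group. The points of the 3 groups interleave for most members, while the Kmt2c KO points of Hist1h2bm (62.3 to 85.3 CPM) lie above all WT points (28.4 to 35.6 CPM).

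Cells were assigned to G1, S or G2M from the study's S and G2M gene lists, which hold no member. Against all other H2BMc-positive cells, the cells called S had lower histone mRNA: 34 of 47 members tested were lower and 0 higher by edgeR's quasi-likelihood test with library as block (Benjamini–Hochberg adjusted p below 0.05), where 37.2% of all 11920 genes were lower and 34.4% higher. Of these members, 44 also passed the filter on low counts in S cells alone, and 32 of them were lower, with a median of -0.42 on the log2 scale against -0.02 for all genes. DESeq2 called 29 lower and 0 higher. Shares over all genes are not given for that fit or for the thinned one below, so their counts are not set against them. S cells were deeper than the other cells, and with every cell thinned to 2000 UMIs 11 members could be tested, without WT library 3 (17 S cells), of which edgeR called 2 lower, Hist1h1c by -0.55 (adjusted p = 0.0347) and Hist1h2ae by -0.36 (0.0478), and 0 higher. There Hist1h1b turned from -0.16 (adjusted p = 0.0461) to 0.30 (0.0775). The other cells pool G1 with G2M cells, which held far more histone mRNA than G1 cells.

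The member with the clearest difference was Hist1h1c, a linker histone gene, which was at 16.5, 13.0 and 17.4 CPM in the S cells of WT, 19.8, 15.7 and 21.7 in Kmt2c KO and 20.9, 24.2 and 21.5 in Kmt2d KO. Its level in the other cells ran from 35.8 to 56.4 CPM, above every S value, and it fell by 1.18 (SE 0.0511, adjusted p = 4.07e-12). Hist1h4d fell by 0.82 (adjusted p = 2.17e-08), Hist2h2ac by 0.65 (5.26e-08) and Hist1h3e by 0.83 (3.74e-07). Hist1h2bm fell by 0.45 (adjusted p = 5.35e-08). The linker histone gene Hist1h1a differed by 0.03 (adjusted p = 0.72) and did not pass the test.

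Split into 3 phases, the same cells gave another order. The 62 members summed to 545 CPM in G1 cells (mean of 9 libraries, range 417 to 705), 1013 CPM in S cells (851 to 1243) and 3320 CPM in G2M cells (2785 to 3828), and in every library G2M was highest. These comparisons by phase were chosen after seeing the data. Of 35 members tested between S and G1 cells, 25 also passed the filter on low counts in G1 cells alone, and of these 16 were higher and 7 lower, where 37.4% and 39.7% of all 11853 genes were. Of 46 members tested between G2M and G1 cells, 25 passed it in G1 cells alone, and of these 20 were higher and 3 lower, against 37.6% and 38.4% of all 11674 genes, with a median of 3.08 and 17 members at least 2 log2 units higher. The other 21 entered through G2M cells, where they are high, and are not counted. Thinned to 2000 UMIs, 3 of 7 members were higher and 1 lower between S and G1 cells (without WT library 3), and 9 of 13 higher and 1 lower between G2M and G1 cells (without WT libraries 1 and 3). The filter in G1 cells alone was not applied to these thinned counts. Members that entered only through S or G2M cells, where they are high, are not set apart in them. Shares over all genes are not given for the thinned fits, so these counts are not read as a trait of the members.

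Among the 25, Hist1h2ap rose by 7.39 from G1 to G2M (SE 0.0843, adjusted p = 5e-22) and Hist1h2ae by 6.53, the latter from 5.16 to 10.1 CPM in G1 to 537 to 796 in G2M. Hist1h1b rose by 6.04. The H1 gene Hist1h1a, one of those not counted, was at 0.252 ± 0.122 CPM in G1, 14.8 ± 3.26 in S and 46.0 ± 6.93 in G2M (SD, n = 9). The G1 and G2M values of each of these genes were far apart in all 9 libraries. Outside the 6 H2B members given below, Hist1h1c rose least, by 1.21, followed by Hist1h4i, an H4 gene, by 1.39. Hist1h1e rose by 3.02, close to the median of the 25.

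**Figure D2:**
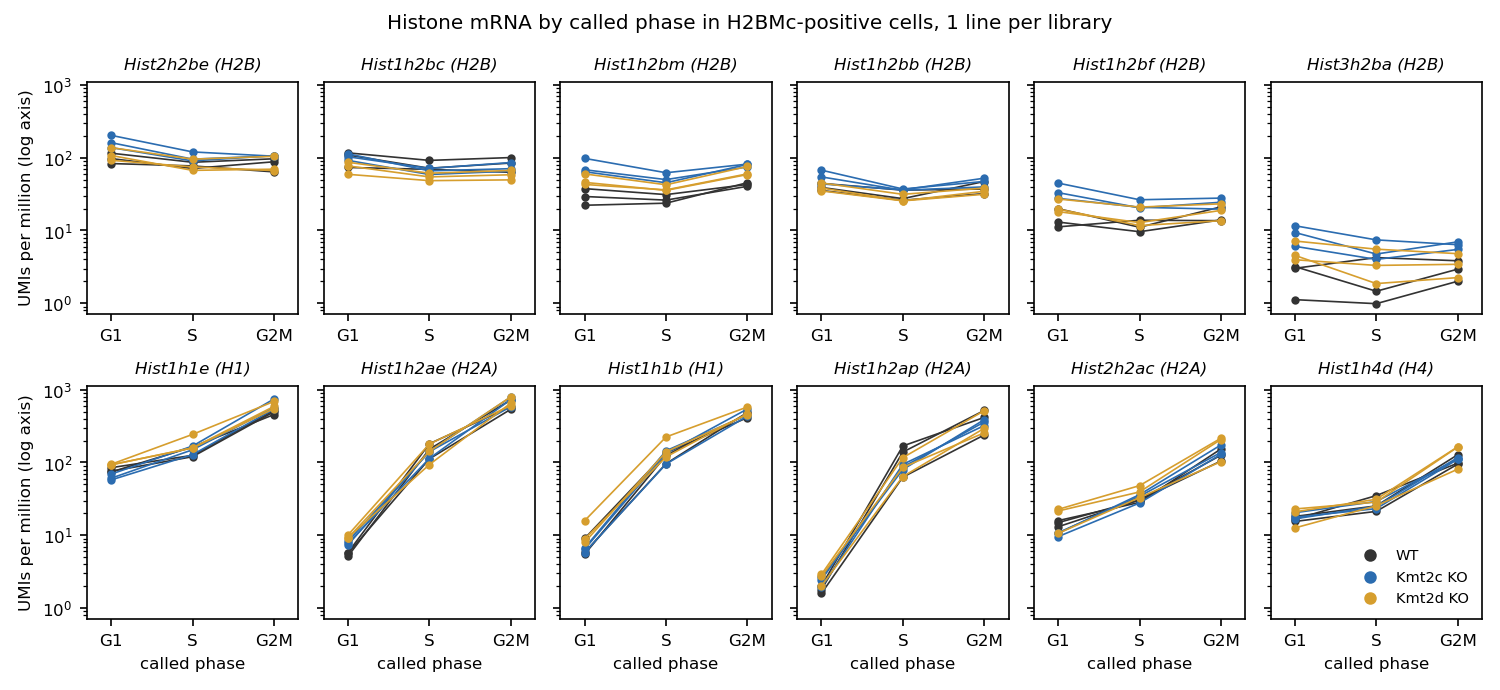
CPM (log axis) in H2BMc-positive cells called G1, S and G2M for 6 H2B members (upper row) and 6 other abundant members (lower row), with 1 line per library coloured by group. The lower lines climb from G1 to G2M in every library (Hist1h2ap from 2.23 to 367 CPM on average), while the upper lines differ less (Hist2h2be at 126 and 89.5 CPM, Hist1h2bm at 51.9 and 62.2 CPM).

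The phase names rest on scores, and the levels are given here by the sign of each score. A cell was called G2M where its G2M score was positive and above its S score, so cells called G2M can have both scores positive. Cells in which only the S score was positive summed to 420 CPM over the 62 members (range 346 to 495), against 545 CPM (417 to 705) in cells with neither score positive, and the ranges overlap. Of this, H2B genes gave 251 against 348 CPM, H1 genes 103 against 125 CPM, and H4 genes 23.5 against 32.7 CPM, while H2A genes had 32.4 against 29.5 CPM and H3 genes 10.5 against 9.10 CPM. Cells with both scores positive summed to 3119 CPM (2726 to 3560). Cells with only the G2M score positive had 522, 670 and 707 CPM in WT, 1115, 1302 and 1513 in Kmt2c KO and 1037, 1914 and 1107 in Kmt2d KO. In this last class WT lay below both KO groups without overlap, but it rested on 11, 24 and 10 WT cells and was not tested. Of the H2BMc-positive cells 13.6% lay within 0.05 of a boundary between calls. S and G2M cells also held more UMIs than G1 cells, with medians of 11183 to 40430 in S and 7004 to 18420 in G1.

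**Figure D3:**
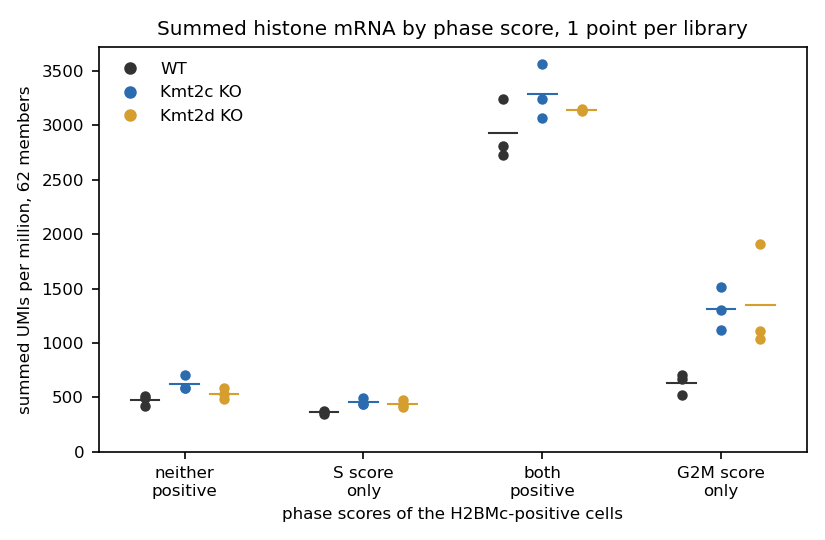
Summed CPM of the 62 members in H2BMc-positive cells by the sign of the S and G2M scores, with 1 point per library and a bar at each group's mean. All 9 libraries lie at 2726 CPM or more where both scores are positive and at 705 CPM or less where neither or only the S score is.

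The 6 members within 0.5 log2 units of no difference between G2M and G1 cells were all H2B genes, from 9 H2B and 16 other members that passed the filter in G1 cells alone. Hist2h2be differed by -0.36 (adjusted p = 0.000116), Hist3h2ba by -0.33 (0.0346), Hist1h2bc by -0.24 (0.000492), Hist1h2bf by -0.19 (0.0761), Hist1h2bb by -0.04 (0.643) and Hist1h2bm by 0.41 (0.000252). They are called level here for the size of the difference with all reads only, since 4 of the 6 passed the test. Thinned to 2000 UMIs and without WT libraries 1 and 3, Hist1h2bc differed by -0.58 (adjusted p = 0.0109 by edgeR) and Hist1h2bb by -0.57 (0.0613), past the 0.5 limit. Hist2h2be at -0.34 (0.0811) and Hist1h2bm at 0.26 (0.293) stayed within it, and Hist1h2bf and Hist3h2ba were not tested there. With all reads, Hist3h2ba differed by -0.53 from G1 to S cells (adjusted p = 0.00192). The other 3 of the 9 rose by at least 2 log2 units, among them Hist2h2bb by 4.11 and Hist1h2bg by 3.38. Neighbouring genes could differ: Hist1h2bf starts 174 bases from the divergent Hist1h2ad, which had 42 UMIs and was not tested, with 83.3% of them in G2M cells against 20.1% of the 5066 UMIs of Hist1h2bf. Of 7 such H2A and H2B pairs on chromosome 13, starting 164 to 249 bases apart, Hist1h2ae and Hist1h2bg, 180 bases apart, rose by 6.53 and 3.38. In the pairs Hist1h2bl and Hist1h2ai, Hist1h2ak and Hist1h2bn, Hist1h2an and Hist1h2bp, and Hist1h2ag and Hist1h2bj, both genes rose, by 4.56 to 6.69. Within each of these pairs the rises lay closer together than those of Hist1h2ae and Hist1h2bg. Their H2B genes are not among the 9 and entered through G2M cells, where they are high. Hist1h2ah and Hist1h2bk were not tested.

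The level members also moved with the reporter, which is itself a tagged H2B. In G1 cells they were compared between H2BMc-positive cells and H2BMc-negative cells with a Krt8 UMI (an epithelial keratin that marks the tumour cells) and no Ptprc or Pecam1 UMI, with library as block, a comparison chosen after seeing the data. Of 24 members tested, 6 were higher in H2BMc-positive cells and 1 lower, where 4.88% and 1.94% of 12245 genes were. These 6 were the 6 level H2B genes. Hist1h2bm was at 51.9 CPM on average in positive and 26.4 CPM in negative cells, higher in 9 of 9 libraries, a difference of 1.06 (SE 0.0808, adjusted p = 4.40e-08 by edgeR's quasi-likelihood test). Hist2h2be had 126 against 67.8 CPM (0.95, adjusted p = 1.92e-07) and Hist1h2bc 92.0 against 53.5 CPM (0.86, 5.80e-08), each higher in 9 of 9 libraries. Hist1h2bb differed by 1.05, Hist1h2bf by 1.01 and Hist3h2ba by 1.03, the last higher in 7 of 9 libraries.

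Other members showed smaller differences. The cycling H2B genes Hist2h2bb and Hist1h2be differed by -0.03 (adjusted p = 0.965) and 0.07 (0.901), and Hist1h1e fell by 0.15 (adjusted p = 0.00318), lower in 9 of 9 libraries at 78.1 against 88.2 CPM. Both comparisons use the G1 H2BMc-positive cells, so the level pattern was also read in H2BMc-negative cells alone. There Hist2h2be had 67.8 CPM in G1 and 64.0 in G2M, Hist1h2bc 53.5 and 54.5, Hist1h2bb 22.6 and 26.9, Hist1h2bf 12.0 and 15.1 and Hist3h2ba 3.14 and 3.18 (means of 9 libraries), so these 5 were nearly level without a reporter UMI as well. Hist1h2bm had 26.4 and 52.8 CPM there, and Hist1h1e 88.2 and 579. The injected lines carried the reporter, so a cell without a reporter UMI need not lack it. Levels in these cells therefore cannot set the pattern apart from the reporter.

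The level H2B genes also followed the number of reporter UMIs. In G1 cells with 1, 2 and at least 3 H2BMc UMIs, Hist2h2be had 94.6, 134 and 215 CPM, Hist1h2bm 37.0, 52.8 and 97.8 CPM and Hist1h2bf 18.5, 23.1 and 42.4 CPM, while Hist1h1e had 79.8, 80.5 and 69.9 CPM (means of 9 libraries). In the cells chosen for Ptprc or Pecam1 UMIs and no H2BMc or Krt8 UMI these H2B genes were low: Hist2h2be was at 7 CPM, Hist1h2bm at 10.4 and Hist1h2bf at 2.25, against 177 CPM for Hist1h1e. H2BMc itself was at 145 CPM in G1 and 83.8 CPM in G2M, which is given without a test, since the cells were chosen by its UMIs and G1 cells were shallower. Whether reads of the reporter's H2B part were counted to these genes was not tested, since its sequence is not among the sources used here. Of their own 100-base stretches, Hist2h2be and Hist3h2ba share 0 with another gene, Hist1h2bm 6.59%, Hist1h2bb 36.2%, Hist1h2bc 42.1% and Hist1h2bf 46.4%.

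**Figure D4:**
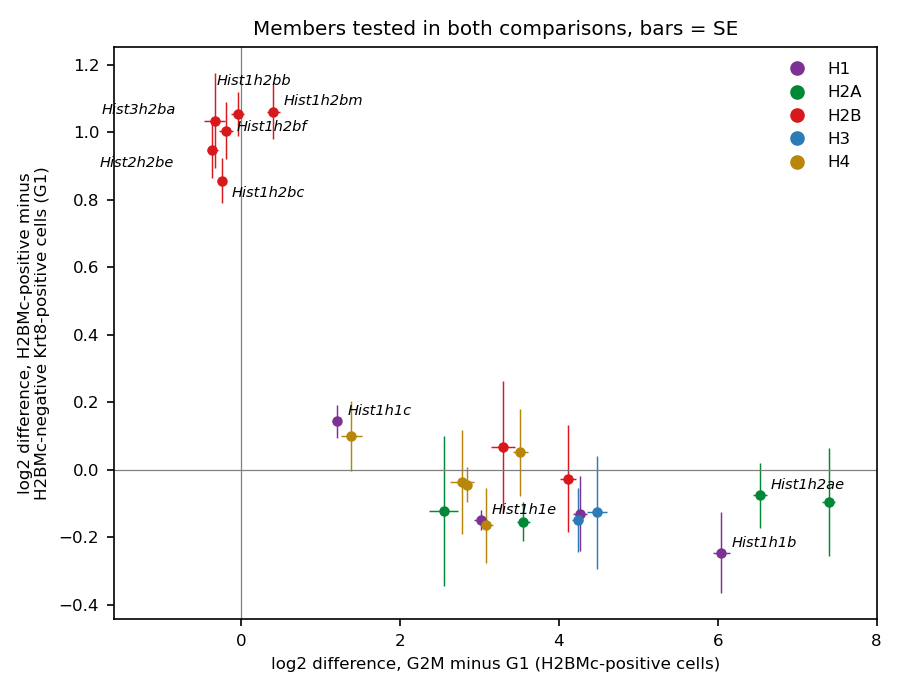
Log2 difference of each member tested in both comparisons, G2M minus G1 in H2BMc-positive cells (x) and H2BMc-positive minus H2BMc-negative Krt8-positive cells in G1 (y), with bars of 1 SE and colours for the histone class. The 6 labelled H2B genes at the upper left lie at 0.86 to 1.06 on y, and all other members lie below 0.3.

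Against WT, Kmt2c KO tumour cells had higher mRNA of 6 members and lower mRNA of 0 among 56 tested, where 9.57% of 14089 genes were higher and 9.17% lower. Their median log2 difference was 0.05, against -0.0039 for all genes. The count of 6 higher lies near the share over all genes and does not set the members apart. No test set such counts, here or by phase, against these shares. Of the 6, 5 were H2B genes, 4 of which belong to the level group above. Hist1h2bm was at 28.4, 30.3 and 35.6 CPM in WT, 64.3, 85.3 and 62.3 in Kmt2c KO and 57.6, 45.8 and 44.6 in Kmt2d KO. All Kmt2c KO libraries were higher than all WT libraries, by 1.17 on the log2 scale (SE 0.169, adjusted p = 0.0020 by edgeR's quasi-likelihood test).

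Hist1h2bf had 12.6, 12.1 and 16.3 CPM in WT, 26.6, 36.9 and 24.4 in Kmt2c KO and 24.4, 15.1 and 16.4 in Kmt2d KO. It was higher in Kmt2c KO by 1.11 (SE 0.235, adjusted p = 0.0105). Hist3h2ba, on chromosome 11, had 1.30, 2.57 and 3.68 CPM in WT, 7.22, 9.59 and 5.42 in Kmt2c KO and 6.17, 2.95 and 3.63 in Kmt2d KO, a difference of 1.56 (SE 0.393, adjusted p = 0.0211). The call of Hist3h2ba was lost without WT library 1, WT library 2 or Kmt2c KO library 2 (adjusted p up to 0.0764). For both genes the Kmt2c KO and WT libraries did not overlap, and Kmt2d KO had means between theirs, overlapped WT and reached into the Kmt2c KO range with library 1. Hist2h2be had 76.4, 86.7 and 99.7 CPM in WT, 124, 164 and 119 in Kmt2c KO and 117, 82.1 and 80.9 in Kmt2d KO (0.64, adjusted p = 0.0405), and its call was lost when WT library 1, 2 or 3 or Kmt2c KO library 2 was left out, with adjusted p up to 0.140.

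The reporter is given beside these genes without a test, since the cells were chosen by its UMIs and depth moved with genotype. H2BMc was at 80.6, 113 and 72.7 CPM in WT, 153, 142 and 149 in Kmt2c KO and 117, 111 and 90.6 in Kmt2d KO. In H2BMc-negative Krt8-positive cells, a fit added after seeing the data, Hist1h2bm differed by 0.50 (adjusted p = 0.123), Hist1h2bf by 0.62 (0.0996), Hist3h2ba by 0.52 (0.427) and Hist2h2be by -0.01 (0.982). Hist1h2bc differed there by -0.59 in Kmt2c KO (adjusted p = 0.056) and -0.77 in Kmt2d KO (0.0651). The part of the reporter in the differences of H2BMc-positive cells was not tested. The level gene Hist1h2bb differed by 0.41 (adjusted p = 0.080) and Hist1h2bc by -0.03 (0.908) in H2BMc-positive cells. Krt8 differed by -0.94 in Kmt2c KO (adjusted p = 0.00648). With every cell thinned to 2000 UMIs and the reporter called anew, 16 members could be tested and 0 were called in Kmt2c KO by edgeR, with 3 at an unadjusted p below 0.05. With the mitochondrial limit at 30%, which keeps more WT cells, 6 were called.

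The cycling H2B gene Hist2h2bb, on chromosome 3, differed in both knockouts. It had 4.20, 3.19 and 3.99 CPM in WT, 9.28, 6.80 and 6.82 in Kmt2c KO and 10.1, 9.30 and 10.0 in Kmt2d KO. All 6 KO libraries lay above all 3 WT libraries, by 1.02 for Kmt2c KO (SE 0.172, adjusted p = 0.00397) and 1.35 for Kmt2d KO (SE 0.171, adjusted p = 0.00362). It was the sole member called by edgeR in Kmt2d KO against WT over all H2BMc-positive cells (DESeq2 called 3), where 1.04% of genes were higher and 1.23% lower, and both contrasts share the WT libraries. In H2BMc-negative Krt8-positive cells its values were 5.65, 2.37 and 4.75 CPM in WT, 8.30, 7.31 and 6.91 in Kmt2c KO and 7.26, 8.88 and 9.21 in Kmt2d KO, again without overlap, with differences of 0.91 (adjusted p = 0.0525) and 1.05 (adjusted p = 0.0955) that did not pass the test. In these cells 0 of 56 members were called in Kmt2d KO by edgeR (0.431% of genes higher and 0.74% lower), with 7 at an unadjusted p below 0.05.

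The H3 gene Hist1h3c was the remaining call, at 4.30, 1.67 and 1.94 CPM in WT, 5.49, 4.33 and 4.66 in Kmt2c KO and 5.07, 5.11 and 5.38 in Kmt2d KO. It differed by 0.90 in Kmt2c KO (adjusted p = 0.0454), with WT library 1 just under the lowest Kmt2c KO library, and the call held in 2 of 9 fits that left out a library, those without WT library 1 and Kmt2d KO library 2. In H2BMc-negative Krt8-positive cells it was the sole member called of 56 by edgeR (1.38, adjusted p = 0.0446), where 4.25% of 13928 genes were higher and 4.41% lower, and that call held in 3 of 9 such fits, those without WT library 3, Kmt2c KO library 3 and Kmt2d KO library 2. Between the knockouts 0 of 56 members were called by edgeR over all H2BMc-positive cells, where 0.0497% of genes were higher and 0.0284% lower. There 10 members had an unadjusted p below 0.05, and DESeq2 called 2.

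**Figure D5:**
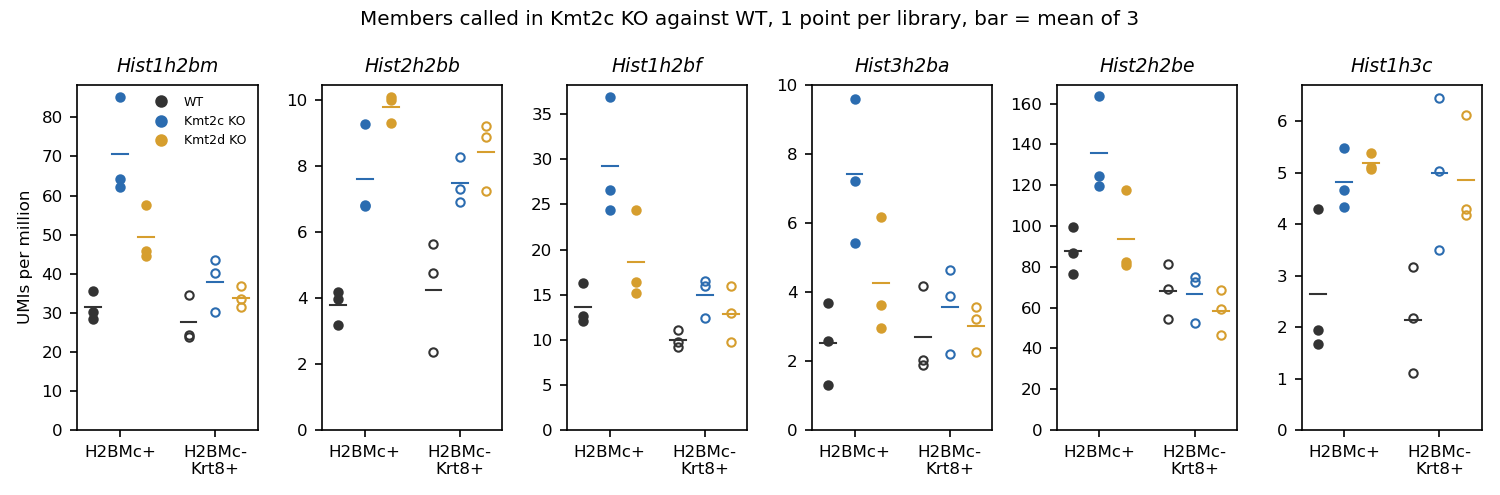
CPM of the 6 members called in Kmt2c KO against WT, in H2BMc-positive cells (filled points) and in H2BMc-negative Krt8-positive cells (open points), with 1 point per library and a bar at each group's mean. For Hist2h2be WT (76.4 to 99.7 CPM) and Kmt2c KO (119 to 164 CPM) separate in the filled points only, where Kmt2d KO overlaps WT. For Hist2h2bb and Hist1h3c WT lies lowest in both.

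By phase, edgeR called 3 of 45 members higher and 0 lower in the S cells of Kmt2c KO than in those of WT, where 7.51% and 7.61% of 11844 genes were. The count of 3 higher lies near the share over all genes as well. Hist1h2bm had 23.7, 26.1 and 31.1 CPM in WT and 50.0, 62.1 and 45.2 in Kmt2c KO (0.89, adjusted p = 0.00428), and Hist1h2bf 13.8, 9.61 and 11.1 against 20.5, 26.4 and 20.8 CPM (0.93, adjusted p = 0.0254). The groups did not overlap for either gene, and the call of Hist1h2bf was lost without WT library 2, WT library 3 or Kmt2c KO library 2 (adjusted p up to 0.111). The third was the H2A gene Hist1h2af, with 2, 2 and 3 UMIs in the WT libraries (0.418 to 0.706 CPM) against 1.03 to 3.16 CPM in Kmt2c KO. It passed the filter on low counts, at 1.29 CPM here, in 0 of 3 WT libraries and entered through KO libraries, so it is given as a level and not as a difference. Thinned to 2000 UMIs, 14 members could be tested and 0 were called by edgeR in either knockout, with 0 at an unadjusted p below 0.05 in Kmt2c KO and 3 in Kmt2d KO. In Kmt2d KO, Hist1h2bc fell by 0.57 (adjusted p = 0.0364, with 1.41% of genes higher and 1.26% lower) from 69.1, 91.7 and 71.6 CPM in WT to 54.4, 61.2 and 48.3 CPM, a call that held in 1 of 9 such fits, that without Kmt2d KO library 2. Between the knockouts 0 members were called in S cells (0.101% of genes higher and 0.0844% lower), with 6 at an unadjusted p below 0.05 and 0 by DESeq2.

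In the other cells 7 of 56 members were higher in Kmt2c KO than in WT and 0 lower, where 8.44% and 7.38% of 13585 genes were. They were Hist3h2ba (1.70), Hist1h2bl (1.39), Hist1h2bm (1.24), Hist1h3i (1.23), Hist2h2bb (1.22), Hist1h2bf (1.14) and Hist2h2be (0.72), 6 H2B genes and 1 H3 gene. Hist1h2bl had only 10, 5 and 4 UMIs in the WT libraries and Hist1h3i 10, 7 and 11. Their lowest WT values, 0.519 and 0.727 CPM, lay close to the filter at 0.492 CPM, so the size of these differences is uncertain. The calls of Hist1h2bm and Hist2h2bb held in all 9 fits that left out a library and that of Hist3h2ba in 8, all but the one without WT library 1. That of Hist1h2bf was lost without WT library 1 or 2 or Kmt2c KO library 2, that of Hist1h2bl without WT library 2 or 3 or Kmt2c KO library 1 or 2, and that of Hist2h2be without any WT library or Kmt2c KO library 1 or 2. Hist1h3i was called in 2 of the 9, those without Kmt2d KO library 2 and 3. Thinned to 2000 UMIs, 15 members could be tested in these cells and 0 were called by edgeR in either knockout, with 2 in Kmt2c KO and 6 in Kmt2d KO at an unadjusted p below 0.05. Hist2h2bb was again the sole member called by edgeR in Kmt2d KO (1.54, adjusted p = 0.00333, 2 called by DESeq2, with 0.81% of genes higher and 0.81% lower), and between the knockouts 0 members and 0 of all genes were called by edgeR, with 8 members at an unadjusted p below 0.05 and 1 by DESeq2. The difference between S and other cells did not differ by genotype for any member by edgeR: 0 of 47 were called for Kmt2c KO (7 at an unadjusted p below 0.05, 0 by DESeq2, 0.763% of genes higher and 0.134% lower) and 0 for Kmt2d KO (6 and 0, 0.143% of genes higher and 0% lower). In the comparisons by 3 phases, the difference between G2M and G1 cells was higher in Kmt2c KO than in WT for 2 of 46 members, Hist1h1e and Hist2h2ac (1% of genes higher and 0.497% lower), and that between S and G1 cells lower for 2 of 35, Hist2h2be and Hist1h2bm (1.8% and 0.835%).

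The other cells were also split into G1 and G2M, fits added after seeing the data. In G1 cells 5 of 27 members were higher in Kmt2c KO than in WT and 0 lower, where 10.1% and 8.64% of 12670 genes were: Hist3h2ba (1.91), Hist1h2bm (1.44), Hist1h2bf (1.34), Hist2h2be (0.83) and the H2A gene Hist1h2ae (0.55). Hist1h2ae was at 5.16, 5.65 and 5.80 CPM in WT, 8.26, 7.74 and 7.38 in Kmt2c KO and 9.27, 10.1 and 9.17 in Kmt2d KO, all 6 KO libraries above all WT libraries. The WT values rest on 23, 39 and 23 UMIs. Hist1h2ae rose by 6.53 from G1 to G2M, and the part of cycling cells called G1 in its difference was not tested. This gene was the sole member called by edgeR in the G1 cells of Kmt2d KO (0.79, adjusted p = 0.0222, 2 called by DESeq2, with 0.9% of genes higher and 0.963% lower). Its calls were lost without WT library 1, 2 or 3, Kmt2c KO library 1 or 2 in the first contrast and Kmt2d KO library 1 or 3 in the second. That of Hist2h2be was lost without WT library 1 or 2 or Kmt2c KO library 2, and the other 3 held in 9 of 9 fits.

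Between the knockouts, Hist1h1e was called in G1 cells, at 60.9, 57.7 and 69.3 CPM in Kmt2c KO and 92.9, 94.7 and 93.1 in Kmt2d KO, with WT between them at 75.8, 84.9 and 74.1. The 3 groups did not overlap, and Kmt2d KO was higher than Kmt2c KO by 0.54 (adjusted p = 0.0463, 1 of 27 members, with 0.268% of genes higher and 0.213% lower). The call held in 1 of 9 fits that left out a library, that without Kmt2d KO library 2, and DESeq2 called 5 members there. In G2M cells 3 of 52 members were higher in Kmt2c KO than in WT and 0 lower (4.9% and 4.29% of 11225 genes), Hist1h2bl, Hist2h2bb (1.22) and Hist1h2bm (0.86), of which Hist1h2bl had 9, 4 and 3 UMIs in WT, passed the filter in 1 of 3 WT libraries and is not read as a difference. The count of 3 higher lies near the share over all genes here too. Hist2h2bb was the sole member called by edgeR in Kmt2d KO (1.40, adjusted p = 0.0121, 2 called by DESeq2, with 0.864% of genes higher and 0.526% lower), a call lost without WT library 1, 2 or 3. Between the knockouts 0 of 52 were called in G2M cells by edgeR and 0 by DESeq2 (0.0713% of genes higher and 0.107% lower), with 7 at an unadjusted p below 0.05.

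No histone gene marked a single library. Of 57 members with at least 10 UMIs in their highest library, 0 had at least 2 times the CPM of the next library there, which 1.04% of 14478 genes had. At so low a share over all genes, 0 of 57 does not set the members apart. The nearest were Hist1h4n, an H4 gene at 1.90 CPM in WT library 1 against 1.12 in WT library 3 (1.69-fold), and Hist1h3e at 60.1 CPM in Kmt2d KO library 2 against 37.1 in WT library 1 (1.62-fold). Kmt2d KO library 2 held the highest value of 15 members and the lowest of 0, and Hist1h1b stood there at 257 CPM against 177 in the next library. The same library had 26.6% of its H2BMc-positive cells called G2M, against 11.7% to 20.5% in the others, and the part of this in its levels was not tested. WT library 1 was highest for 16 members and WT library 2 lowest for 21. Like counts over all genes are not given, so these counts are not read as a trait of the members.

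Genes that process, carry or replace these histones were counted from lists. Without genes of the phase lists, 15 of 20 histone mRNA processing genes were higher and 0 lower in S against other cells, and 13 and 3 of 17 histone chaperones, where 34.4% of all genes were higher and 37.2% lower. Eri1, an exonuclease that trims and degrades histone mRNA, differed by 0.90, Mcm2, a helicase subunit that also binds histones, by 2.54, and Chaf1a, a subunit of the replication-coupled chaperone CAF-1, by 1.72. Of 9 replication-independent histone genes 3 were higher and 6 lower, with H2afz at 0.64 and H1f0 at -0.74. Slbp, Casp8ap2, Chaf1b, Nasp, Cenpa, Hjurp and Anp32e were used for the phase call and carry no test here. Against WT in all H2BMc-positive cells, 0 of 23 processing genes were higher in Kmt2c KO and 3 lower (Snrpd3 at -0.41, Cpsf2 at -0.34 and Snrpg at -0.31), and 1 of 21 chaperones was higher and 5 lower (Anp32e at -0.45, Chaf1a at -0.46), where 9.57% of all genes were higher and 9.17% lower. H2afz was the sole replication-independent histone of 10 called there, at -0.62. In Kmt2d KO the medians of the 3 lists were 0.01, -0.02 and 0.02.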

How the data were processed

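The 9 libraries were deposited as 1 aggregated matrix of UMI counts per gene and cell barcode, which the authors made with Cell Ranger 7.0.1 on mm10 with the reporter added, per the labels and the study's methods. The sources used here do not say whether libraries were thinned to a common depth. The aggregation names each library by a letter only: C and D were read as Kmt2c KO and Kmt2d KO and X, by elimination, as WT. All columns of per-sample values were used.

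Kept cells had more than 500 and fewer than 7500 genes and under 15% mitochondrial UMIs, as in the study. No doublet caller was run. Phases were called with scanpy 1.11.5 from the study's lists (41 S and 53 G2M genes found). Counts were summed per library and cell set and, from at least 20 cells, fitted over all genes with edgeR 4.0.16 (filterByExpr, TMM, quasi-likelihood test, all 3 groups, Benjamini–Hochberg adjusted p under 0.05), with library as block between cell sets. SE are from edgeR's fit. R 4.3.3, Python 3.11.15, numpy 2.4.6, pandas 2.3.3 and matplotlib 3.10.9 were used, and the fit was tested on simulated data. Alternatives were DESeq2 1.42.0, RLE factors, no filter, other cell sets, thinning to 2000 UMIs, a 30% mitochondrial limit and leaving out each library. Comparisons between G1, S and G2M cells, of genotypes within G1 and G2M cells, of H2BMc-negative cells and of reporter strata were added after seeing the data. The members and gene lists were chosen with earlier results of these data known. By rule, the genes named were the 3 highest of each class, up to 5 called in each direction with the smallest adjusted p per genotype contrast and in S against other cells, members at least 2 times the next library, and up to 3 per list. All others were chosen after their values were seen.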

Additional observations from a re-analysis of the deposited data

Results flagged for a closer look

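For 4 members the difference between phases itself differed between Kmt2c KO and WT by edgeR's interaction test over all genes, in comparisons added after seeing the data. Hist1h1e, the most abundant linker histone gene, rose more from G1 to G2M in Kmt2c KO than in WT by 0.58 (SE 0.0957, adjusted p = 0.00614). It had 78.3 CPM in G1 and 490 CPM in G2M in WT, and 62.6 and 617 CPM in Kmt2c KO, and the call held in 9 of 9 fits that left out a library. Hist2h2ac, an H2A gene, rose more by 0.66 (SE 0.146, adjusted p = 0.0274), a call lost without WT library 1 or 2 or Kmt2c KO library 2 or 3. These 2 were the members called of 46, where 1% of all 11674 genes were higher and 0.497% lower. Of the 46, 21 entered only through G2M cells. With every cell thinned to 2000 UMIs the differences were 1.09 (adjusted p = 0.735) and 1.24 (0.92), without WT libraries 1 and 3, and 0 of 13 members were called by edgeR, with 2 at an unadjusted p below 0.05.

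From G1 to S, Hist2h2be differed by -0.46 between Kmt2c KO and WT (SE 0.12, adjusted p = 0.046) and Hist1h2bm by -0.49 (SE 0.125, adjusted p = 0.0437), the 2 called of 35 members. Over all 11853 genes 1.8% were higher and 0.835% lower, and 10 of the 35 members entered only through S cells. Hist2h2be had 98.4 CPM in G1 and 78.2 CPM in S in WT, and 167 and 102 CPM in Kmt2c KO. These calls held in 3 and 4 of 9 fits without a library. Thinned to 2000 UMIs and without WT library 3, the difference of Hist2h2be turned to 0.18 (adjusted p = 0.981), that of Hist1h2bm was -1 (0.897), and 0 of 7 members were called by edgeR, with 1 at an unadjusted p below 0.05. DESeq2 called 1 member in this comparison with all reads.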

How the results depend on the processing

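No paired analysis was possible because nothing ties the libraries to the replicate numbers of the labels. Thinning to 2000 UMIs (66 to 1146 cells per library, 7 to 16 members tested) left 0 members called in Kmt2c KO and Kmt2d KO against WT in all, S and other cells, 1 between the knockouts in all cells, 2 in S against other cells, 4 in S against G1, 10 in G2M against G1 and 0 in both phase differences of Kmt2c KO against WT. The summed level became 807 CPM in WT and 989 CPM in Kmt2c KO. Thinning turned Hist1h1b in S against other cells to 0.30 and the S against G1 difference of Hist2h2be between Kmt2c KO and WT to 0.18. The cause was not tested beyond the fewer members tested.

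DESeq2 called 3 members in Kmt2d KO and 2 between the knockouts in all cells, 2 and 1 in other cells and 1 in the S against G1 difference of Kmt2c KO. Without a filter on low counts these were 3, 4, 4, 5 and 5, with 5, 7 and 4 in the 3 genotype contrasts of S cells, 4 and 2 in the S effects of Kmt2c KO and Kmt2d KO, 54 in S against G1 and 5 in the G2M against G1 difference of Kmt2c KO. In G1 cells DESeq2 called 2 members in Kmt2d KO and 5 between the knockouts, and 2 in the G2M cells of Kmt2d KO, while thinning left 1, 0 and 0 in the 3 contrasts of G1 cells and 0 in those of G2M cells. The 30% mitochondrial limit and the fit of only the 2 groups each left 0 in Kmt2d KO S cells. S against G1 in place of all other cells gave 33 calls, 26 of them higher. Of the 35 members tested, 25 passed the filter in G1 cells alone, with 16 higher and 7 lower (37.4% and 39.7% of all genes). The other 10 entered through S cells, where they are high. Counts between phases given here with thinning, without a filter or without a library take in such members too. For the counts under these alternatives, shares over all genes are not given, so they are not read as a trait of the members.

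Leaving out 1 library at a time gave 4 to 8 calls in Kmt2c KO, 1 to 2 in Kmt2d KO and 0 to 3 between the knockouts in all cells, 1 to 5, 0 to 2 and 0 to 2 in S cells, and 3 to 9, 1 to 3 and 0 to 1 in other cells. It gave 30 to 38 in S against other cells, 31 to 35 in S against G1, 42 to 48 in G2M against G1, 0 to 5 and 1 to 3 in their differences for Kmt2c KO, 0 to 4, 0 to 2 and 0 in H2BMc-negative cells and 7 to 8 by reporter. The counts against G1 include members that entered only through S or G2M cells, which with all libraries were 10 of 35 and 21 of 46 tested. Of the single genes' values under alternatives, 1553 kept direction and side of the threshold, 148 lost and 15 gained the call and 2 turned.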
